A study of Mus musculus with 6 samples.

Results

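Azurophil granules, also called primary granules, are the first granules a developing neutrophil makes, and the genes for their contents are read at the promyelocyte stage of granulopoiesis in the bone marrow and then shut off. They store myeloperoxidase and a set of serine proteases that kill ingested microbes. Promyelocytes still divide, whereas the neutrophils that leave the marrow do not and no longer transcribe these genes. The genes described here are Mpo, Elane, Prtn3, Ctsg and Ms4a3, and every probe set that names exactly one of them was taken. Below they are called the 5 azurophil genes for short, although Ms4a3 encodes no granule protein. They had 1 probe set each, 5 of the 34760 on the array. Mature CD4+ T cells, the labelled cell type of these samples, are not known to make azurophil granules.

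RNA of CD4+ T cells, the lymphocytes that give help to other immune cells or restrain them, was hybridised to Affymetrix arrays. The mice were of the C57BL/6 strain, which the series text places at 6 weeks of age. Mice with the genotype label CBS-KO (3 arrays), which the series text calls deficient in CBS, cystathionine beta-synthase, an enzyme of homocysteine removal and hydrogen sulfide production, were compared with wild-type mice, labelled WT (3 arrays). The labels name no treatment, and the allele, the knockout strategy, the organ and the way the cells were isolated are not stated in the labels. The labels call the arrays biological replicates, and 3 arrays per group limit the precision of every value.

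Values are given as intensity or as log2(intensity + 16), the log2 value, and the median of an array was 7.37 to 7.55 on that scale. The Cbs probe set had log2 values of 7.25, 7.63 and 7.35 in CBS-KO 1 to 3 and 7.37, 7.48 and 7.19 in WT 1 to 3 (adjusted p = 0.801), and since the part of the gene it covers is not given, it does not check the labels. The female-specific RNA Xist read 6.02, 6.18 and 12.23 in CBS-KO 1 to 3 and 12.61 to 12.68 in WT, and the Y-linked Eif2s3y read 9.41, 9.19 and 4.87 in CBS-KO 1 to 3 and 4.87 to 4.90 in WT. Sex and genotype were thus partly confounded, and CBS-KO 3 was the 1 CBS-KO array without Y-linked signal. The T cell markers Cd4 and Cd3d were above the array medians in every sample, at 12.49 to 13.04 and 10.12 to 10.82 in CBS-KO and 13.23 to 13.42 and 11.53 to 11.65 in WT.

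All 5 genes were higher in CBS-KO cells, by 3.70-fold to 11.6-fold, and on each of them every CBS-KO array lay above every WT array. Over the whole table, 5.09% of 20856 tested probe sets were called higher in CBS-KO at an adjusted p of 0.05 in limma's linear model, and 15.0% had all CBS-KO arrays above all WT arrays. The median log2 fold change of all tested probe sets was -0.05. In bulk samples, more cells of a type and more RNA per cell cannot be told apart.

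Mpo encodes myeloperoxidase, the haem enzyme that turns hydrogen peroxide and chloride into hypochlorous acid. Its intensity (probe set 10380174) was 7768, 3204 and 6059 in CBS-KO 1 to 3, against 446, 278 and 1014 in WT 1 to 3. CBS-KO 2 was the lowest CBS-KO array and WT 3 the highest WT array, and the groups did not overlap. The log2 mean was 12.38 ± 0.66 in CBS-KO and 9.02 ± 0.92 in WT (SD, n = 3 each), a log2 fold change of 3.36 (SE 0.51, 95% confidence interval 2.15 to 4.58, limma adjusted p = 0.0179), or 10.3-fold on the scale of intensity + 16. Only 34 of the tested probe sets had a log2 fold change at least as large, Mpo included.

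The serine proteases rose with it. Elane, neutrophil elastase, which degrades elastin and bacterial outer membrane proteins, had intensities (probe set 10364535) of 4406, 1977 and 3755 in CBS-KO 1 to 3, against 374, 234 and 527 in WT 1 to 3. The gap between the lowest CBS-KO and the highest WT array was the widest of the 5 genes, at 1.88 log2 units. The log2 mean was 11.65 ± 0.61 in CBS-KO and 8.55 ± 0.56 in WT (SD, n = 3 each), a log2 fold change of 3.10 (SE 0.38, interval 2.19 to 4.004, limma adjusted p = 0.0116).

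Prtn3, proteinase 3, a close relative of elastase and its next protein-coding neighbour on chromosome 10, had intensities (probe set 10364529) of 1137, 506 and 1209 in CBS-KO 1 to 3, against 112, 110.0 and 204 in WT 1 to 3. WT 1 and WT 2 lay at the level of the filter on dim probe sets, an intensity of 111, so the WT level may be background and the fold depends on it. The log2 mean was 9.82 ± 0.69 in CBS-KO and 7.25 ± 0.46 in WT (SD, n = 3 each), a log2 fold change of 2.57 (SE 0.38, interval 1.65 to 3.48, limma adjusted p = 0.0173).

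Ctsg, cathepsin G, a chymotrypsin-like protease that belongs to the granzyme and mast cell protease cluster of chromosome 14, had intensities (probe set 10420261) of 2628, 904 and 2313 in CBS-KO 1 to 3, against 131, 70.6 and 272 in WT 1 to 3. WT 2 lay below the filter level. The log2 mean was 10.80 ± 0.83 in CBS-KO and 7.27 ± 0.87 in WT (SD, n = 3 each). Its log2 fold change of 3.53 (SE 0.55, interval 2.23 to 4.83, limma adjusted p = 0.0185), or 11.6-fold, was the largest of the 5 with the offset of 16, whereas with an offset of 64 it was 3.15, below the 3.24 of Mpo.

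Ms4a3 encodes a membrane protein of the MS4A family, not a granule protein, and in the mouse marks the common progenitors of granulocytes and monocytes. Its intensity (probe set 10466224) was 548, 197 and 573 in CBS-KO 1 to 3, against 86.4, 84.96 and 119 in WT 1 to 3. The WT mean lay below the filter level and the probe set was tested only because of its CBS-KO values. The log2 mean was 8.69 ± 0.83 in CBS-KO and 6.80 ± 0.24 in WT (SD, n = 3 each), a log2 fold change of 1.89 (SE 0.40, interval 0.95 to 2.83, limma adjusted p = 0.0369), or 3.70-fold, the smallest of the 5. With an offset of 1 in place of 16 it was 2.04 and with 64 it was 1.54.

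**Figure D1:**
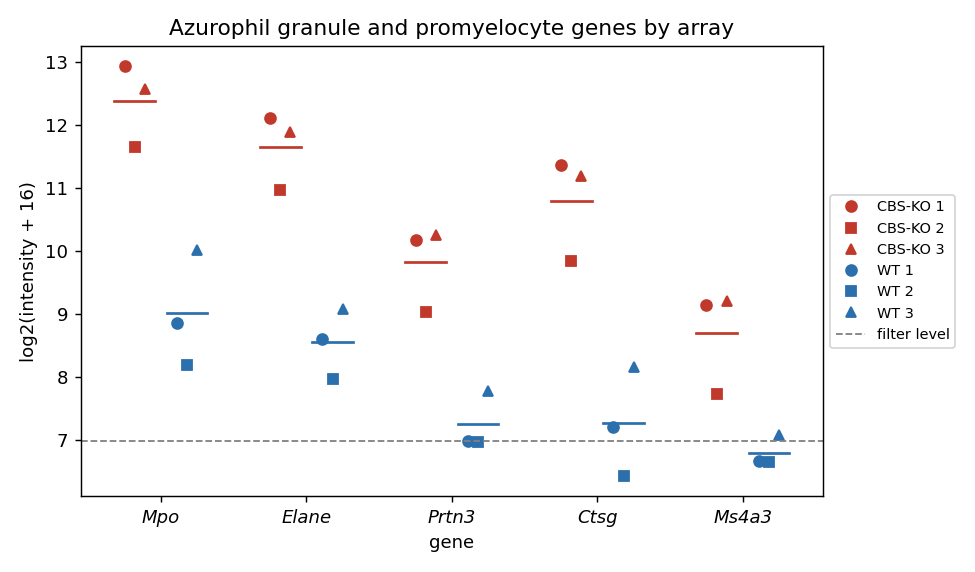
Points are the log2(intensity + 16) of each array for each gene, with CBS-KO in red to the left and WT in blue to the right, short lines the group means (n = 3 each), and the dashed line the filter level of 6.99. Every CBS-KO point lies above every WT point of its gene, CBS-KO 2 is the lowest CBS-KO point throughout, and WT 3 is the highest WT point throughout.

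For each gene a 2-sided exact permutation test on the group means returned p = 0.1, the smallest that 3 against 3 arrays can give. The limma calls of all 5 genes were lost without WT 1, WT 2 or CBS-KO 1, with adjusted p between 0.0549 (Elane, without CBS-KO 1) and 0.147 (Ms4a3, without WT 1), while their log2 fold changes stayed between 1.63 and 4.01 whichever array was left out. Those 3 removals also cut the number of called probe sets in the whole table to 93, 73 and 166. Ms4a3 lost its call in addition without WT 3 (adjusted p = 0.0816) or CBS-KO 3 (0.0646) and with no filter (0.0649). Without the variance that limma shares between probe sets, all 5 calls were lost (adjusted p between 0.0934 and 0.140). With Y-linked signal as a model term, the estimate sets CBS-KO 3 alone against WT and takes its spread from the other arrays; the log2 fold changes were 3.55 for Mpo, 3.33 for Elane, 3.01 for Prtn3, 3.92 for Ctsg and 2.40 for Ms4a3, and all 5 passed (limma adjusted p between 0.0163 and 0.0246).

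**Figure D2:**
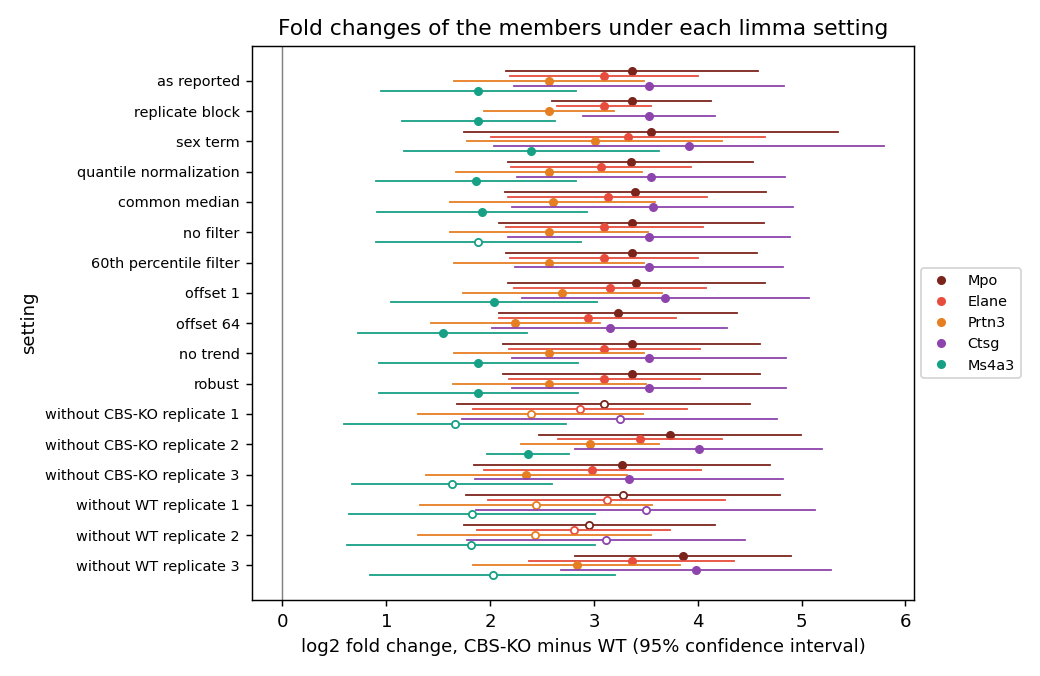
Points are log2 fold changes, CBS-KO minus WT, and lines their 95% confidence intervals, for the 5 genes under the reported limma model and each alternative limma setting; open points did not reach an adjusted p of 0.05. No interval drawn reaches 0, all 5 points are open without CBS-KO 1, WT 1 or WT 2, and Ms4a3 is also open with no filter and without CBS-KO 3 or WT 3. A test without a shared variance, in which all 5 missed the threshold, is not drawn.

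The 5 genes shared the lowest CBS-KO array and the order of the WT arrays. CBS-KO 2 was the lowest CBS-KO array for 5 of 5, which held for 40.3% of all tested probe sets, and its difference from the mean of CBS-KO 1 and 3, in log2 units, was -1.09 for Mpo, -1.03 for Elane, -1.19 for Prtn3, -1.43 for Ctsg and -1.44 for Ms4a3. WT 3 was the highest WT array for 5 of 5 (37.5% of tested probe sets) and WT 2 the lowest for 5 of 5 (35.4%). WT 3 exceeded WT 2 by 1.81 log2 units for Mpo and 1.73 for Ctsg, against 0.42 for Ms4a3. The SD of the 5 genes was 0.61 to 0.83 among CBS-KO arrays and 0.24 to 0.92 among WT arrays, above the medians of all tested probe sets, which were 0.21 and 0.11. Mpo and Ctsg had the closest pair of array profiles, with a Euclidean distance of 0.44 log2 units over the 6 arrays after the WT mean of each was subtracted, and Ctsg and Ms4a3 the farthest, at 2.998.

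The 250 bases before each annotated start were searched, since the 5 genes moved together and known regulators of the promyelocyte bind short motifs. The sequences are RefSeq's for build GRCm38.p6, 1 for each of the 5 genes, printed 5′ to 3′ on the strand of the gene with every motif match in capitals. They lie at chr11:87793534-87793783 (plus strand) for Mpo, chr10:79886062-79886311 (plus) for Elane, chr10:79879417-79879666 (plus) for Prtn3, chr14:56102575-56102824 (minus) for Ctsg and chr19:11640852-11641101 (minus) for Ms4a3.
Mpo: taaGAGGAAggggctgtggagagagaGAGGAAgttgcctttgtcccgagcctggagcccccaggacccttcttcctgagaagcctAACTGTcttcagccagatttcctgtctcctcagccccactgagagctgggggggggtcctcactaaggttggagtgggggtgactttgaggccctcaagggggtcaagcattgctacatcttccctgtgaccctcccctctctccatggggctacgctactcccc
Elane: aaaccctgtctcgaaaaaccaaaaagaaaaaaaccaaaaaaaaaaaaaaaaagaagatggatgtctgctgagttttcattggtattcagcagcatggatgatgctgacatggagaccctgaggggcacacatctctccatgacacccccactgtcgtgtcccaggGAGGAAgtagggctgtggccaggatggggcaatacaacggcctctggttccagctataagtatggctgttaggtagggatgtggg
Prtn3: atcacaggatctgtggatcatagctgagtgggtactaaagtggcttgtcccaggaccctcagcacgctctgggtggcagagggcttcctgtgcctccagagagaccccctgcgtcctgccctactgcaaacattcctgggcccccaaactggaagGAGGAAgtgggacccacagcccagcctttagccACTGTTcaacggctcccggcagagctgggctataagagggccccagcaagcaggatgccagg
Ctsg: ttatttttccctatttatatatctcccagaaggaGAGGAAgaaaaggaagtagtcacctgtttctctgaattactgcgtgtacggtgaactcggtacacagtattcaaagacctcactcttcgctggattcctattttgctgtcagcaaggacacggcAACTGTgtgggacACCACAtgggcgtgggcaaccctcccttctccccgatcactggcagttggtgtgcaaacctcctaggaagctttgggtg
Ms4a3: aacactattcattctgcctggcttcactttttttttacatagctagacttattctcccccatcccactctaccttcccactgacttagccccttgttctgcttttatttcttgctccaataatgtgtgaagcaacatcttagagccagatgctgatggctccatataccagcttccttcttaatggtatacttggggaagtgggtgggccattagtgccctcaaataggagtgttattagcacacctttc
The letters GAGGAA, a core of PU.1 and other ETS factor sites, were found on the gene's strand in 4 of the 5 windows, at 85 to 80 bases before the start of Elane and 95 to 90 before that of Prtn3, at 2 places in Mpo and 1 in Ctsg. On either strand they occur in 23.3% of 32851 promoter windows of the same length. AACNGT, one form of a Myb core, was found in Mpo, Ctsg and Prtn3 (on the opposite strand), 3 of 5, against 22.3% of windows. Other forms of a Myb site were not searched, such as the CAACGG left in lower case in the Elane and Prtn3 windows. TGTGGT, a Runx core, was found on the opposite strand in Ctsg, against 14.05% of windows. TTGCNNAA, a C/EBP core, was in none of the 5 and in 9.56% of windows, and the Ms4a3 window held none of the 4 motifs. No matches overlapped, and a match is a run of letters and not a measured binding site.

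Of the tested genes beside the 5 on their chromosomes, 1 of 11 passed, and it fell. Over all tested probe sets the called shares were 5.09% higher and 4.47% lower, so this count was near the background. The 3 nearest annotated genes on each side of each member gave 24 neighbours other than the 5 themselves, of which 16 were measured and 11 tested. Of those 11, 0 were called higher (limma adjusted p under 0.05; 5 were higher at an unadjusted p under 0.05, which 30.9% of all tested probe sets reached in either direction) and Mks1, a gene of the ciliary transition zone next to Lpo near Mpo, was called lower (-0.61, SE 0.13, adjusted p = 0.0383), a call that was lost with no filter on dim probe sets and on leaving out any single array other than CBS-KO 2. The median log2 fold change of the tested neighbours was 0.23. The remaining neighbours named here were chosen after their values were seen. Lpo, lactoperoxidase, the next protein-coding gene to Mpo, read 6.70 in CBS-KO and 6.75 in WT on the log2 scale and was below the filter. Epx, the eosinophil peroxidase, 2 genes further on, differed by 1.61 log2 units (SE 0.43, adjusted p = 0.0616). The mast cell and basophil genes Mcpt8, near Ctsg, and Ms4a2, next to Ms4a3, had 1.88 (SE 0.64, adjusted p = 0.103) and 1.20 (SE 0.40, adjusted p = 0.101), none past the threshold. Epx, Mcpt8 and Ms4a2 were among the 5 higher at an unadjusted p under 0.05. Their WT means lay below the filter level, so they were tested only because of their CBS-KO values. The granzyme genes Gzme and Gzmd beside Ctsg were below the filter, with log2 fold changes of 0.08 and 0.02, and Med16 and Ptbp1 on either side of the elastase locus had 0.16 and 0.13 (adjusted p = 0.474 and 0.347). Plppr3 lies nearer to Prtn3 than Ptbp1 does and had 0.57 (SE 0.14, adjusted p = 0.0503). Its groups did not overlap, but it missed the threshold.

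**Figure D3:**
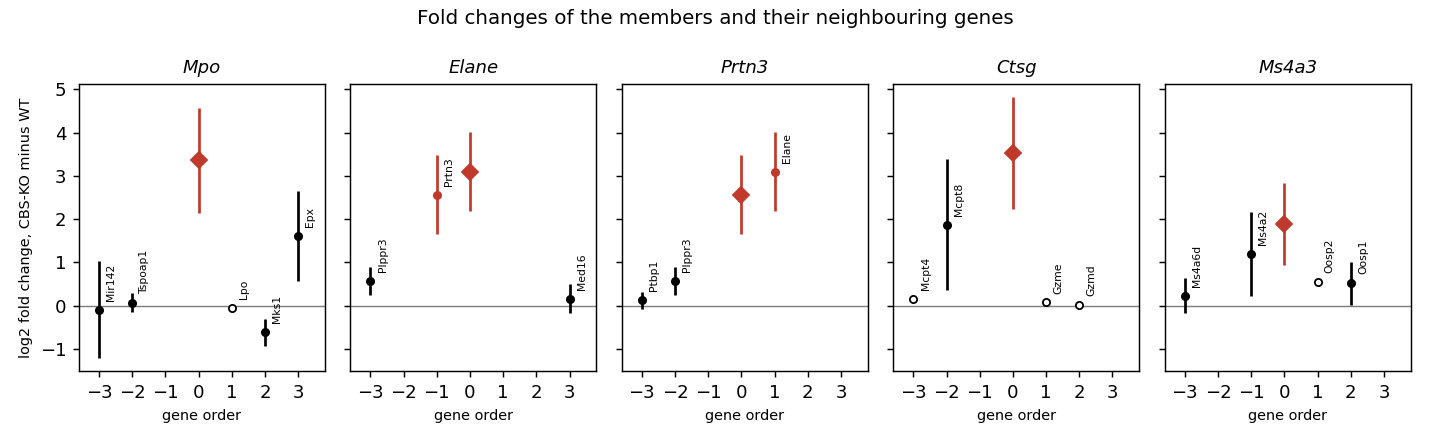
Each panel centres on one gene (red diamond) and shows the measured genes up to 3 places away in annotation order on the x axis, with the log2 fold change, CBS-KO minus WT, on the y axis; bars are 95% confidence intervals, open circles probe sets below the filter, and red circles the other members. Elane and Prtn3 are neighbours and both rose, and no other neighbour is called higher.

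Genes for proteins that mature, carry and restrain the granule proteases, or share their granule, were called in part. Of 20 listed partners, 18 were measured and 17 tested, and 7 rose, with a median log2 fold change of 0.68 over the 18 measured. They were the lysozymes Lyz2 (3.67, SE 0.39) and Lyz1 (1.11, SE 0.21), the eosinophil granule protein gene Prg2 (1.81, SE 0.23), the lysosomal membrane proteins Cd68 (1.64, SE 0.22) and Cd63 (1.53, SE 0.33), the elastase and cathepsin G inhibitor Serpinb1a (1.64, SE 0.28) and the acid glucosidase Gaa (0.79, SE 0.18). Prg2 is also counted in the mast cell, basophil and eosinophil list below. Cd63 averaged less than the filter level in WT. Signals of Lyz1 and Lyz2 may cross-hybridise, since the genes are near-identical copies. Ctsc, the dipeptidyl peptidase that activates elastase, proteinase 3 and cathepsin G, differed by 0.12 log2 units (SE 0.12, adjusted p = 0.552), with a log2 level of 11.45 in CBS-KO and 11.32 in WT. Srgn, serglycin, the proteoglycan that packs the proteases and is also made by T cells, had -0.06 (SE 0.06, adjusted p = 0.603). Prss57, a further serine protease of the same granule, had log2 values of 7.83, 7.05 and 7.81 in CBS-KO 1 to 3, against 6.66, 6.64 and 6.76 in WT 1 to 3. Its groups did not overlap, but its log2 fold change of 0.88 (SE 0.21) missed the threshold (adjusted p = 0.051). Over the 17 tested partners CBS-KO 2 was the lowest CBS-KO array for 8 and the highest for 7. Of the list, 1 gene passed without WT 1 or CBS-KO 1, 0 without WT 2, 4 without WT 3 and 11 without CBS-KO 2.

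Genes listed as promyelocyte transcription factors, some of them factors of other lineages, were measured on 20 probe sets. Of these, 19 were tested and 4 rose, beside 5.09% of all tested probe sets, with a median log2 fold change of 0.40 over the 20. Spi1, the gene of PU.1, rose by 2.42 (SE 0.27, adjusted p = 0.0094). Gfi1b, a transcriptional repressor that acts in erythroid and megakaryocyte cells, rose by 2.84 (SE 0.34). Irf8, a factor of monocytes and dendritic cells that restrains neutrophil fate, rose by 1.43 (SE 0.29). Cebpa, which is required for the granulocyte and monocyte progenitor, rose by 0.66 (SE 0.15, adjusted p = 0.045). Cebpe, which takes over at the myelocyte stage, had 0.53 (SE 0.16, adjusted p = 0.0833), Myb 0.69 (SE 0.24, adjusted p = 0.111) and Gfi1, a repressor needed for neutrophil formation and also active in T cells, -0.25 (SE 0.19, adjusted p = 0.433). Without WT 1, WT 2 or CBS-KO 1, 0 of the list passed, and without CBS-KO 2, 8 did.

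Genes of the next steps of neutrophil formation were called in part. Of 19 genes of specific and gelatinase granules, 18 were tested and 10 rose (median 1.25 over the 19). The 4 with the smallest p were Lcn2, the siderophore binder, at 5.33 (SE 0.19), the chitinase-like Chil3 at 3.27 (SE 0.19), Hp, haptoglobin, at 2.81 (SE 0.18) and Ngp, a granule protein of neutrophil precursors, at 5.33 (SE 0.38). Ltf, lactoferrin, rose by 3.82 (SE 0.39) and Camp, cathelicidin, by 1.31 (SE 0.26). For 2 of the 10, Chil3 among them, WT averaged less than the filter level. Of 15 measured genes of late neutrophils, 11 were tested and 9 rose (median 1.91 over the 15). The 4 with the smallest p were S100a9 (3.86, SE 0.20), S100a8 (3.95, SE 0.24), the neutrophil surface gene Ly6g (2.999, SE 0.19) and Fcgr3 (1.53, SE 0.16). Cxcr2, the chemokine receptor that draws neutrophils out of the marrow, rose by 3.51 (SE 0.50). In 7 of the 9, S100a9, S100a8, Ly6g and Cxcr2 among them, WT averaged less than the filter level and the test was made only because of the CBS-KO values, so their folds are against a WT signal that may be background. Without WT 1 or WT 2, 5 specific and gelatinase granule genes and 3 late genes passed, without CBS-KO 1, 7 and 4, and 5 late genes did without WT 3.

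The 5 azurophil genes and the late neutrophil genes had different CBS-KO arrays at the bottom. Cxcr2 had log2 values of 9.44, 10.65 and 8.66 in CBS-KO 1 to 3, against 5.65, 6.03 and 6.54 in WT 1 to 3, and Csf3r, named after its values were seen, the receptor of the granulocyte growth factor G-CSF, had 9.77, 11.28 and 9.13 in CBS-KO, against 7.09, 7.03 and 7.46 in WT. CBS-KO 2, the lowest CBS-KO array for all 5 azurophil genes, was thus the highest for both. It was the highest CBS-KO array for 10 of 11 tested late neutrophil genes and the lowest for 0, beside 45.5% and 40.3% of all tested probe sets. The median difference between CBS-KO 2 and the mean of CBS-KO 1 and 3 was 0.93 log2 units for the late genes, 0.22 for specific and gelatinase granule genes, of which CBS-KO 2 was the highest for 10 of 18 and the lowest for 6, and -1.19 for the 5 azurophil genes. The other early lists were split, with CBS-KO 2 lowest for 8 and highest for 7 of 17 granule partners (median difference 0.04) and lowest for 8 and highest for 10 of 19 promyelocyte factors (0.29). Within the specific granule list Ltf (11.49, 9.96 and 11.03 in CBS-KO 1 to 3) and Camp (8.86, 7.86 and 8.75) were lowest in CBS-KO 2, as the azurophil genes were. CBS-KO 2 was also the highest CBS-KO array for 9 of 9 CD4 T cell identity genes (median difference 0.49) and 9 of 9 B cell genes (1.49). A high value in CBS-KO 2 was thus not particular to late neutrophil genes. These comparisons within CBS-KO rest on 1 array against 2, and no test was made of them.

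**Figure D4:**
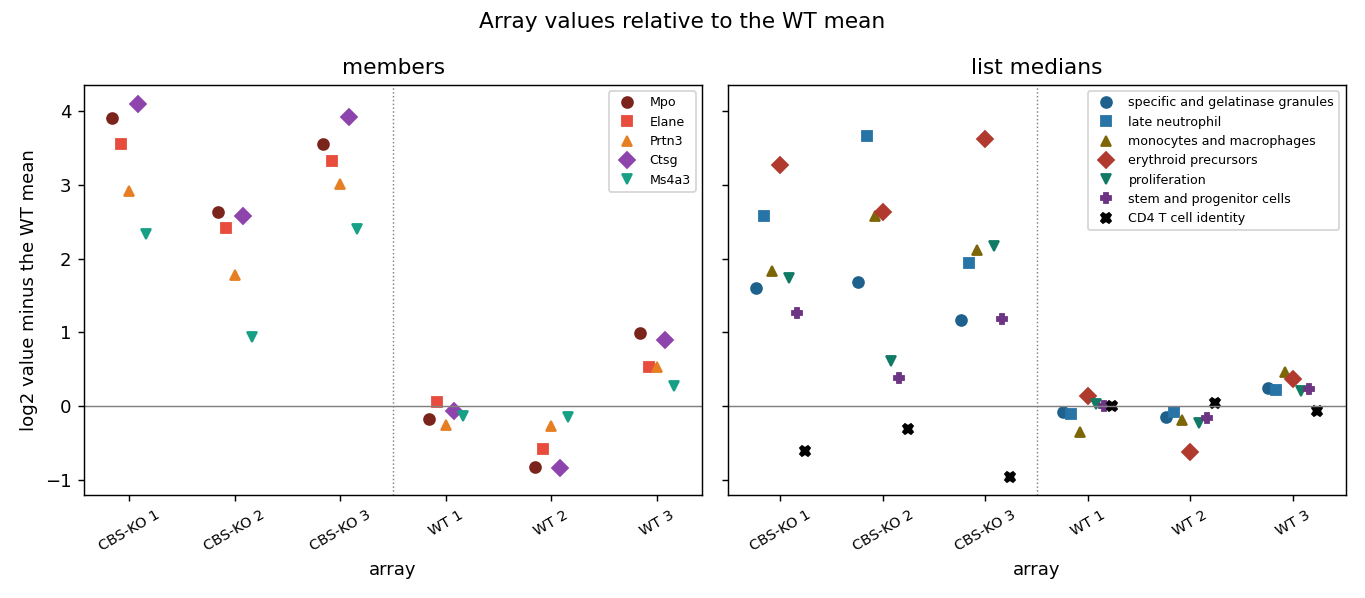
The y axis is the log2 value of each array minus the WT mean, for the 5 genes on the left and for the medians of the tested genes of 7 lists on the right, with the arrays on the x axis and symbols offset sideways for legibility. The 5 genes, the erythroid, proliferation and progenitor medians dip in CBS-KO 2, whereas the late neutrophil and monocyte medians peak there. The CD4 T cell identity median lies below the WT mean in all CBS-KO arrays, least so in CBS-KO 2.

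Stem and progenitor cell genes were also called in part. Of 21 measured stem and progenitor genes, 19 were tested and 8 rose (median 0.80 over the 21). The 4 with the smallest p were the growth factor receptor genes Flt3 (2.19, SE 0.24), Csf2ra (1.38, SE 0.17) and Csf1r (2.40, SE 0.36) and the surface protein gene Cd93 (1.72, SE 0.31). Kit, the stem cell factor receptor, had log2 values of 10.79, 10.03 and 10.97 in CBS-KO 1 to 3, against 9.09, 8.59 and 9.44 in WT 1 to 3, and rose by 1.55 (SE 0.31). Cd34, a progenitor surface marker, had 10.64, 8.76 and 10.58 in CBS-KO, against 7.63, 7.34 and 8.51 in WT. Its groups did not overlap and its log2 fold change of 2.17 (SE 0.56) missed the threshold (adjusted p = 0.0563). Both were lowest in CBS-KO 2 and WT 2 and, in WT, highest in WT 3, as the 5 azurophil genes were. Over the 19 tested genes CBS-KO 2 was the lowest CBS-KO array for 12 and the highest for 5.

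Of 19 genes of dividing cells, all tested, 9 rose (median 1.49), among them Mki67, the proliferation antigen Ki-67 (1.69, SE 0.29), Ccna2, cyclin A (1.99, SE 0.36), the thymidine kinase Tk1 (1.65, SE 0.30) and the ribonucleotide reductase subunit Rrm2 (1.96, SE 0.37). CBS-KO 2 was the lowest CBS-KO array for 19 of 19, and WT 3 the highest WT array for 17. Without WT 1, WT 2, WT 3 or CBS-KO 1, 0 of them passed, without CBS-KO 3, 4 did, and without CBS-KO 2 all 19 did. Without WT 2, 0 stem and progenitor genes passed, without WT 1 or CBS-KO 1, 1 did, without WT 3 or CBS-KO 3, 5 did, and without CBS-KO 2, 16 did.

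Among all genes with a tested probe set of their own, 12771 besides the 5, the 8 with the array profile nearest to the mean profile of the 5 were Gfi1b (Euclidean distance 0.38 log2 units over 6 arrays), Spire1 (0.41), an actin nucleator, Blvrb (0.45), a biliverdin reductase, F13a1 (0.48), a subunit of clotting factor XIII, Ermap (0.49), a red cell membrane protein, Stom (0.49), the membrane protein stomatin, C1qtnf12 (0.51) and Paqr9 (0.51). Their log2 fold changes lay between 2.74 (Blvrb) and 3.07 (Paqr9). The 3 nearest to Mpo and to Ctsg were the same genes, the water channel Aqp1, Nxpe2 and Tspan33. Those nearest to Elane were Stom, Paqr9 and F13a1, and those nearest to Prtn3 were the nuclease and helicase Dna2, Hebp1 and Blvrb. Ms4a3 lay nearest to Kif18b, Rrm2 and Knl1, genes of mitosis and DNA synthesis. Such likeness over 6 arrays in 2 groups is a description only.

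Markers of several other cell types differed between the same arrays. All 8 measured erythroid genes rose (median 3.03), beside 5.09% of all tested probe sets called higher. Their summed intensity was 17198 to 40065 in CBS-KO and 1793 to 3821 in WT, with CBS-KO 2 lowest for 7 of 8. For 1 of the 8, WT averaged less than the filter level. Slc4a1, the red cell anion exchanger, rose by 4.31 (SE 0.38), and it, Alas2 (3.002, SE 0.18), Rhag (4.28, SE 0.48) and Rhd (4.14, SE 0.50) had the smallest p of the list. Of 13 measured monocyte and macrophage genes, 12 were tested and 11 rose (median 2.37 over the 13), with a summed intensity of 17719 to 22571 in CBS-KO and 2980 to 5232 in WT. WT averaged less than the filter level for 1 of the 11. F13a1 (2.95, SE 0.30), Lyz2, C1qb (2.37, SE 0.30) and C1qc (2.45, SE 0.33) had the smallest p, and CBS-KO 2 was the highest CBS-KO array for 8 of the 12. Of 17 measured genes of mast cells, basophils and eosinophils, 11 were tested and 4 rose (median 1.09 over the 17), namely the histidine decarboxylase Hdc (1.65, SE 0.16), Prg2, the transcription factor Gata1 (2.51, SE 0.41) and the eotaxin receptor Ccr3 (1.81, SE 0.34), with summed intensities of 4228 to 10263 in CBS-KO and 1772 to 2398 in WT. CBS-KO 2 was the lowest CBS-KO array for 9 of these 11.

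Of the 9 measured genes of CD4 T cell identity, 4 fell, beside 4.47% of all tested probe sets called lower (Cd3d, -1.12, SE 0.18; Cd3g, -0.74, SE 0.13; Cd2, -0.80, SE 0.19; Cd28, -0.86, SE 0.21), with a median of -0.60 and a summed intensity of 31947 to 50343 in CBS-KO and 60157 to 64815 in WT. Of 9 B cell genes, the IgM heavy chain gene Ighm rose (1.53, SE 0.23), the median was -0.12, and the summed intensity was 9606 to 25819 in CBS-KO and 9735 to 13794 in WT. No marker was at 0 on any array, as the table holds no value below 7.44. The part of these cell types, of sex and of proliferation in the rise of the azurophil genes was not tested. Without WT 2, 2 erythroid, 0 monocyte and macrophage, 0 mast cell, basophil and eosinophil, 0 CD4 T cell and 0 B cell genes passed, without WT 1 these counts were 3, 1, 1, 0 and 0, and without CBS-KO 1 they were 2, 5, 2, 0 and 0. Without WT 3 they were 7, 9, 2, 0 and 0, and without CBS-KO 2 they were 8, 11, 10, 9 and 3.

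**Figure D5:**
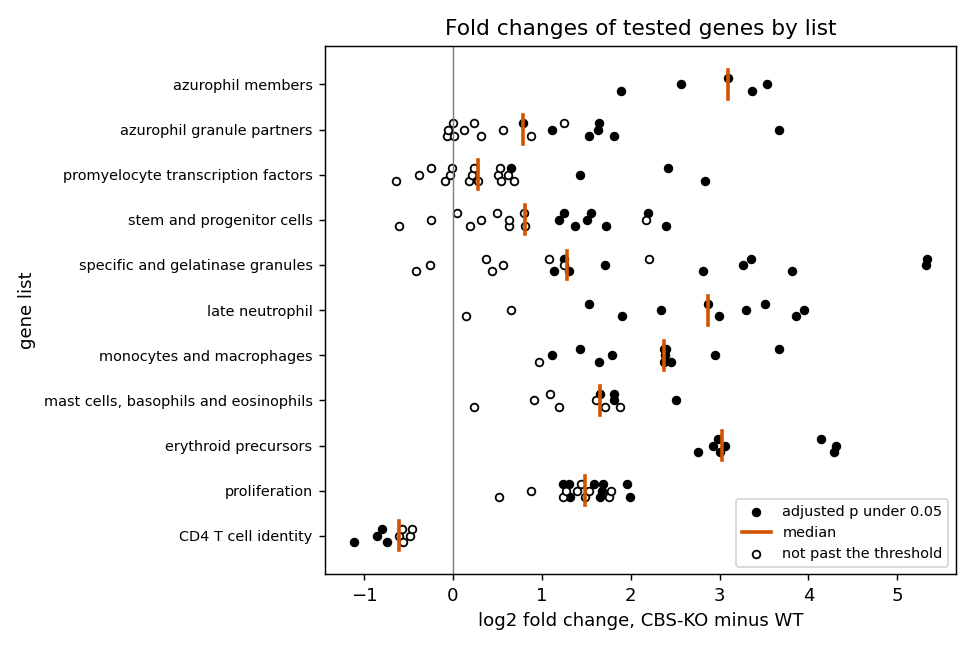
Each point is the log2 fold change, CBS-KO minus WT, of 1 tested gene on the x axis, by gene list on the y axis; filled points reached an adjusted p of 0.05 and orange lines are the medians of the tested genes. The 5 azurophil and promyelocyte genes lie between 1.89 and 3.53, within the range of the specific and gelatinase granule genes. The azurophil partner, late neutrophil, and monocyte and macrophage lists span that range too. The CD4 T cell identity genes all lie below 0.

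Other genes in the protein families of the 5, and genes of granule formation, were called in part. Over all tested probe sets, 5.09% were called higher and 4.47% lower. Of 15 measured MS4A genes other than Ms4a3, 12 were tested and Ms4a6c rose (0.59, SE 0.12), with a median of -0.04 over the 15. Of 19 measured granule serine protease genes of other cells, 7 were tested and 2 rose, the kallikrein Klk1b22 (4.50, SE 0.37) and granzyme A, Gzma (1.38, SE 0.15). The median log2 fold change was 1.38 over the 7 tested, of which 6 were positive. It was 0.03 over the 19, most of which lay below the filter. The WT mean of Klk1b22 lay below the filter level (WT mean minus filter level -1.28 log2 units), so it was tested only because of its CBS-KO values and its fold is against a signal that may be background. Of 6 measured peroxidase and cyclooxygenase genes, 1 was tested, Epx. Among 14 genes of granule formation and release that cytotoxic lymphocytes share with neutrophils, the fusion protein gene Stx11 (0.90, SE 0.14) and Lamp2 (0.43, SE 0.10) rose and Rab27a, a GTPase of granule docking, fell (-0.72, SE 0.10), with a median of -0.05. Without WT 1, WT 2 or CBS-KO 1, 0 MS4A genes and 0 granule formation genes passed, and 1 serine protease gene did. Without CBS-KO 2, 6 MS4A, 4 serine protease and 5 granule formation genes passed, and without WT 3, 0 MS4A genes did.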

How the data were processed

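The members and gene lists were chosen with earlier results of these data known. The authors deposited a processed intensity for every probe set of the 6 arrays, linear in scale judging by the values. Their background correction, normalization and summary of probes are not stated in the labels, which give a Qiagen RNA kit and labelled cRNA from 6 ug of RNA. An offset of 16 was added, log2 was taken and nothing was rescaled. Probe sets whose 6-array mean exceeded the 40th percentile (log2 6.99), 20856 of 34760, entered a two-sided fit in limma 3.58.1 (R 4.3.3; eBayes, trend), adjusted by Benjamini and Hochberg across them all. The platform annotation gave 21640 probe sets a single gene, 1321 more than one and 11799 no gene. Listed genes were represented by their brightest probe set naming 1 gene, and the gene order came from GRCm38.p6. Named were all members, up to 4 called genes of smallest p per list, a fixed set of list genes, called neighbours and the genes of nearest array profile. Alternatives were 2 normalizations, 2 filters, offsets of 1 and 64, 3 variance models, the replicate number as a block, Y-linked signal as a term, probe set averaging, and each array left out with the tested set kept. The model was tested on simulated data. Figures were drawn with matplotlib 3.10.9.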

Additional observations from a re-analysis of the deposited data

How the results depend on the processing

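All 5 genes passed with quantile normalization, a common array median, offsets of 1 and 64, no trend, the robust model and the replicate block, and 4 of 5 passed with no filter, where Ms4a3 did not, while Ms4a3 was not tested at the 60th percentile. With the Y-linked term all 5 passed, but there CBS-KO 3 alone stands for CBS-KO and is assumed to vary like the other arrays. In a plain t-test without a shared variance 0 of 5 passed, beside 74 of all probe sets, 0 neighbours and 7 list genes, against 77 in the reported model. Leaving out each array in turn gave 0 to 5 called members, 73 to 6427 called probe sets, 0 to 5 neighbours and 11 to 125 list genes. Outside the single lists, counts that moved by more than 1.5 times were 1126 probe sets and 0 neighbours with no filter, 2 neighbours with no trend, and 4976 probe sets and 3 neighbours with the Y-linked term, and the causes were not tested. Of the 15 lists, 5 had over 1.5 times fewer calls with no filter (proliferation 3, stem and progenitor 4, promyelocyte factors 2, CD4 identity 2, MS4A 0) and 14 in the plain t-test, while 5 had more with the Y-linked term (proliferation 19, CD4 identity 9, MS4A 4, shared granule formation 5, peroxidases 1). With the replicate block 3 lists had more calls (proliferation 16, MS4A 3, peroxidases 1) and 1 fewer (promyelocyte factors 2). At the 60th percentile 4 late neutrophil genes, 1 serine protease gene and 3 MS4A genes passed, with a common median 5 MS4A genes, with quantile normalization 3, and with no trend or the robust model 2 CD4 identity genes. Same-numbered arrays of the 2 groups had correlations of deviations from the group means of 0.06, 0.16 and 0.11, not all above 0.1, so the numbers were not taken to pair the arrays, although each array correlated best with its own number. With the replicate block 2093 probe sets passed, against 1995 without it. The call of the neighbour Mks1 was lost with the block, where 1 neighbour other than Mks1 was called. It was also lost in the plain t-test, where 0 neighbours were called. WT levels of Prtn3, Ctsg and Ms4a3 near the filter level limit how exactly their fold changes are known, and 13 of the 72 list genes called higher had a WT mean below it.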
